A study of Danio rerio with 12 samples.

Results

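Homeobox and paired box genes that mark the regions of the vertebrate brain were examined in whole brains of adult zebrafish after a social encounter. Genes were taken from the platform annotation by symbol: the dlx, lhx, nkx, sine oculis-related (six3a and its relatives), emx, otx, pax, gbx, en1, en2, irx, barhl, arx, isl, pou3 and pou4 families. The symbols matched 91 of 15502 probe sets, and the brightest probe set of each gene gave 76 genes of the 8793 genes with a probe set of their own symbol. Of these, 73 are homeobox or paired box genes. The other 3, islr2, paxbp1 and paxip1, share only the start of their symbol with a family and were kept in the counts but described apart. Genes entered by symbol, without a measured value, but for the 11 genes with more than 1 probe set the choice used brightness on these arrays. The families were picked with earlier results of these data known.

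Homeobox proteins bind DNA and set the identity of cells by their position in the embryo. In the forebrain, dlx genes mark the subpallium, where GABA neurons arise, emx genes mark the pallium, and nkx2.1 and six3 mark the hypothalamus and eye field. Further back, irx, otx, gbx, en and pax2 genes lay out the thalamus, the tectum and the midbrain-hindbrain boundary, and nkx2.2 and isl genes mark ventral cell types. Many of these genes stay on in the adult brain in restricted sets of neurons.

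The 4 groups each had 3 arrays of whole brain RNA from adult wild-type fish of the AB strain. Winners and losers had fought a real opponent, mirror fighters had attacked their own reflection, and isolated fish had met no opponent. Fish of all groups had been kept alone for 5 days before. The interaction lasted 30 min, and the sex of the fish on each array is not given.

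The 12 arrays had median intensities of 94.1 to 104, and the correlation of log2 values between arrays of one group was 0.957 to 0.977. Control transcripts spiked into the hybridization averaged 11.16 ± 0.19 in winners, 11.04 ± 0.27 in losers, 10.23 ± 0.08 in mirror fighters and 10.23 ± 0.09 in isolated fish (mean log2 intensity ± SD, n = 3 arrays). The winner and loser arrays lay at or above 10.74 and the mirror and isolated arrays at or below 10.33, so any comparison of a real fight with a mirror or with isolation also crossed this offset, whose part in the results below was not tested. The comparisons of winners with losers and of mirror fighters with isolated fish do not cross it. A second set of spiked controls, 27 poly-A control probe sets, was split the same way. Their array means were 6.66 to 6.84 in winners, 6.62 to 6.86 in losers, 6.01 to 6.45 in mirror fighters and 6.35 to 6.40 in isolated fish. Summed intensity of 7 neuron markers was 32637 to 37599 in winners, 31342 to 32045 in losers, 27415 to 29555 in mirror fighters and 26082 to 33237 in isolated fish. No neuron, astroglia, oligodendrocyte, pituitary, pineal, blood or muscle marker was called in any comparison, and the pituitary hormone genes gh1, prl and tshba lay among the dimmest 25% of probe sets. All 4 blood markers were below 0 in winners and losers against both other groups, with medians of -0.27 for winners and -0.34 for losers minus isolated fish, and -0.46 for winners and -0.58 for losers minus mirror fighters. Their summed intensity was 6615 to 12997 in winners, 7628 to 14148 in losers, 10790 to 14724 in mirror fighters and 10617 to 13753 in isolated fish, and their part in the lower values of homeobox genes was not tested. In whole brain RNA, fewer cells of a type and less RNA per cell cannot be told apart.

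None of the 76 genes passed the test in any of the 6 pairwise comparisons or in the test for any difference among the 4 groups (limma, Benjamini-Hochberg adjusted p under 0.05 over 15502 probe sets). Over all probe sets the share called was 0.277% for any difference, 0.245% for winners and 0.568% for losers against isolated fish, and 0% for mirror fighters against isolated fish and for winners against losers. It was 0.00645% for winners and 0.174% for losers against mirror fighters. With so few probe sets called anywhere, a count of 0 among 76 genes was near that background.

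Without adjustment, p lay under 0.05 for 15 of the 76 genes, 19.7%, in the test for any difference, against 18.6% of all probe sets. In winners against isolated fish the count was 17 genes, 22.4%, against 19.6% of all probe sets, and in losers against isolated fish it was 19 genes, 25%, against 21.2%. Winners against losers gave 6 genes, 7.89%, against 4.14% of all probe sets, and mirror fighters against isolated fish gave 0 genes, against 3.83%. Winners against mirror fighters gave 9 genes, 11.8%, against 16.8%, and losers against mirror fighters gave 16 genes, 21.1%, against 17.7%. The shares of the comparisons that cross the offset of the spiked controls lay within a few percentage points of the background, on either side of it. Of those that do not cross it, winners against losers lay above its background and mirror fighters against isolated fish below.

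Counting genes whose 2 groups of arrays did not overlap gave the losers the largest numbers. Losers lay wholly apart from isolated fish for 26 of 76 genes, 10 higher and 16 lower, that is 34.2% against 26.2% of all probe sets (10.8% higher and 15.3% lower) and 28.2% of the 8793 genes. They lay wholly apart from mirror fighters for 27 genes, 7 higher and 20 lower, 35.5% against 24.2% of all probe sets (10.3% higher and 14% lower) and 26.2% of genes. In the other comparisons the shares lay on either side of the background. Winners lay apart from isolated fish for 16 genes, 8 higher and 8 lower, 21.1% against 23.8% of all probe sets (10.6% higher and 13.2% lower). They lay apart from mirror fighters for 16 genes, 6 higher and 10 lower, 21.1% against 22.7% (11% higher and 11.7% lower). Over the 8793 genes the shares were 26.4% for winners against isolated fish and 24.7% for winners against mirror fighters. For comparisons that do not cross the offset of the spiked controls the numbers were small. Winners lay apart from losers for 7 genes, 6 higher and 1 lower, 9.21% against 6.58% of all probe sets (3.93% higher and 2.64% lower). Mirror fighters lay apart from isolated fish for 4 genes, 3 higher and 1 lower, 5.26% against 10.7% (4.94% higher and 5.78% lower). Over the 8793 genes the shares were 6.7% for winners against losers and 10.4% for mirror fighters against isolated fish.

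The median difference over the 76 genes was -0.03 for winners, -0.07 for losers and 0.05 for mirror fighters, each minus isolated fish, on the log2 scale. Over all 8793 genes the same medians were -0.03, -0.05 and 0.01. Losers were below isolated fish for 48 of the 76 genes and winners for 43. After quantile normalization these counts were 43 and 41. After each array was centred on its median, which moves all genes of an array alike, they were 35 and 33. The median of all probe sets moved as well, from -0.01 to 0.09 for losers and from 0.01 to 0.09 for winners, each minus isolated fish. That of the 76 genes became 0.02 for losers and 0.05 for winners. Counts after centring, here and for the classes below, therefore give no position relative to other genes.

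Among the 73 homeobox and paired box genes, 26 lay in the dimmest 25% of probe sets, with a mean log2 intensity under 5.02. The limit applies to the mean over all 12 arrays. In the remaining 47, losers were below isolated fish for 35 genes, 74.5% against 58.6% of all genes of that brightness. After median centring it was 24 genes, and the share of all genes was not counted after centring. Losers lay apart from isolated fish without overlap for 16 of the 47, 2 higher and 14 lower, 34.0% against 30.3% of all genes of that brightness. They lay apart from mirror fighters for 19, 2 higher and 17 lower, 40.4% against 28.6%. These are descriptions of a set chosen by brightness, and a gene near the limit, such as nkx2.1, passes it through the groups in which it reads high. The median difference of the 47 was -0.21 for losers minus mirror fighters and -0.11 for losers minus isolated fish, beside -0.07 and -0.07 for all genes of that brightness.

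**Figure D1:**
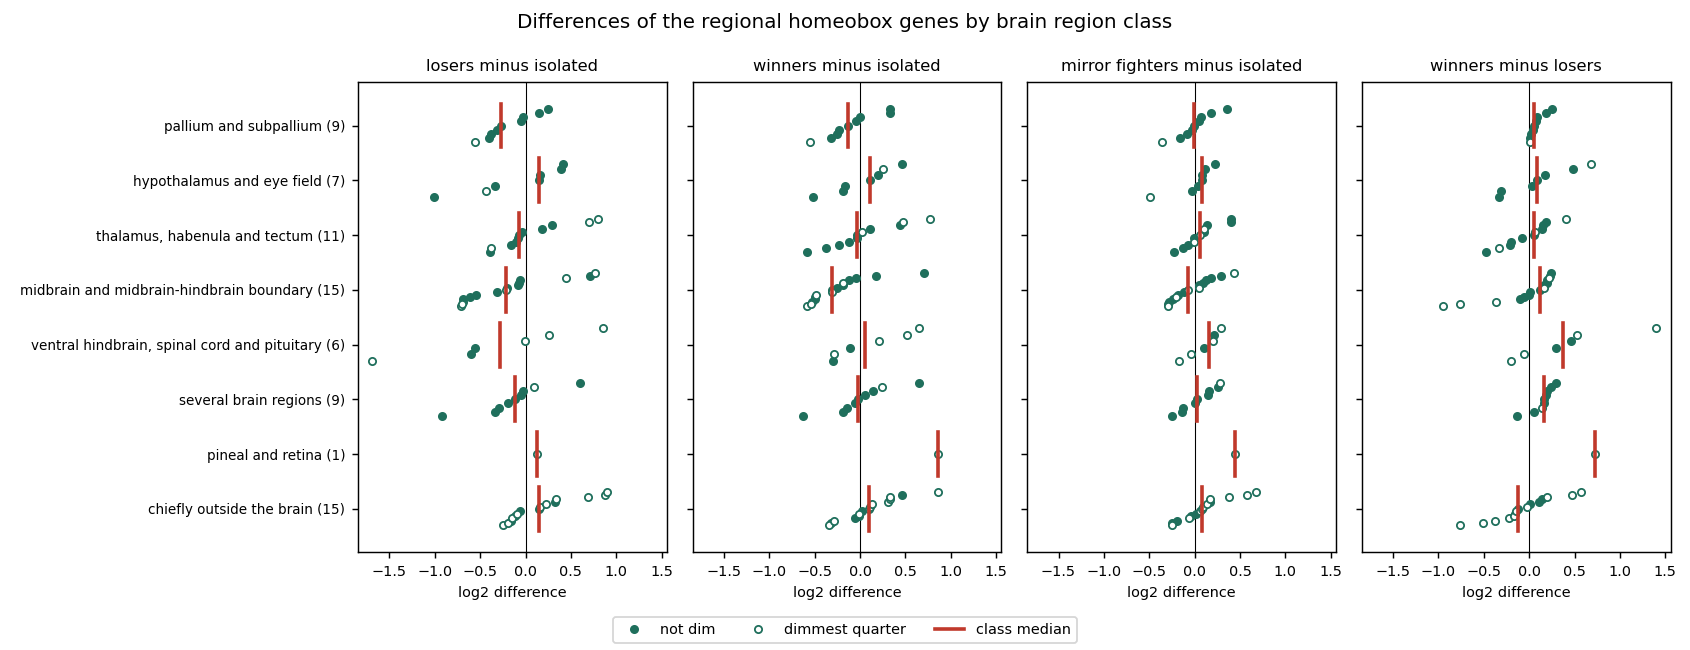
Each point is the log2 difference of one gene in the comparison named above the panel, for the 73 homeobox and paired box genes by brain region class, filled where the gene lay outside the dimmest 25% of probe sets and open where it lay within, with a bar at the class median. Most points of the midbrain class lie left of 0 in winners and losers against isolated fish, and the 9 pallium and subpallium genes all lie right of 0 in winners minus losers, 7 of them after median centring.

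Of 9 genes of the pallium and subpallium, 7 were lower in losers than in isolated fish, or 5 after median centring of the arrays, with a median of -0.27, and the median was -0.13 for winners. Before centring, 56% of all 8793 genes were lower in losers than in isolated fish. The gene dlx2a, needed with its neighbour dlx1a for GABA neurons of the subpallium, read 6.66, 6.94 and 6.82 in winners, 6.61, 6.71 and 6.83 in losers, 7.08, 7.23 and 7.04 in mirror fighters and 7.28, 6.90 and 7.20 in isolated fish (log2 intensity). All 3 loser arrays lay below every mirror and isolated array, while 1 winner array lay above the lowest isolated array. The difference was -0.41 ± 0.14 for losers minus isolated fish (log2 ± SE, adjusted p = 0.15) and -0.32 ± 0.14 for winners minus isolated fish (adjusted p = 0.252), neither past the threshold.

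The gene dlx6a, which lies next to dlx5a and acts later in the same neurons, read 7.31, 7.02 and 7.35 in winners, 6.99, 6.81 and 7.13 in losers, 7.39, 7.53 and 7.29 in mirror fighters and 7.47, 7.15 and 7.45 in isolated fish. Losers again lay below every mirror and isolated array, and they overlapped winners. The difference was -0.38 ± 0.15 for losers minus isolated fish (adjusted p = 0.188). The gene dlx1a went against its neighbour, with differences of 0.33 in winners and 0.14 in losers, each minus isolated fish. It was named after its values were seen.

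In the pallium, emx1 and emx3 differed in direction. The dim gene emx1 read 4.92, 4.04 and 4.48 in winners, 4.53, 4.49 and 4.40 in losers, 4.69, 4.71 and 4.60 in mirror fighters and 5.08, 5.19 and 4.83 in isolated fish. Only the winners overlapped the isolated arrays, and the difference was -0.56 ± 0.20 for losers (adjusted p = 0.156) and -0.36 ± 0.20 for mirror fighters (adjusted p = 1), each minus isolated fish. The gene emx3 read 5.36, 5.18 and 4.82 in winners, 5.15, 4.60 and 5.37 in losers, 5.0, 5.17 and 5.27 in mirror fighters and 4.75, 4.89 and 4.73 in isolated fish. The mirror arrays lay above the isolated arrays, by 0.35 ± 0.21 (adjusted p = 1), and losers straddled them. Winner minus loser differences were above 0 for all 9 genes of the class, or for 7 after median centring, with a median of 0.05, and none of them passed the test. Before centring, 4908 of all 8793 genes were above 0 in that comparison. The other 5 genes, dlx1a, dlx2b, dlx5a, emx2 and lhx8a, had differences from -0.31 to 0.14 in losers minus isolated fish. For emx2 a second probe set gave -0.53 in losers and -0.70 in winners, each minus isolated fish, where the one used gave -0.31 and -0.26.

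Among the 7 genes of the hypothalamus and eye field, nkx2.1 came nearest to the threshold of all 76. Its protein is required in mouse for the ventral forebrain and hypothalamus. It read 4.85, 4.68 and 5.22 in winners, 4.17, 4.41 and 4.71 in losers, 5.57, 5.64 and 5.23 in mirror fighters and 5.45, 5.32 and 5.54 in isolated fish. The losers lay at the bottom, overlapping only the lowest winners, and both fight groups lay below all mirror and isolated arrays.

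Losers were at 0.498 of the isolated level for nkx2.1, a difference of -1.01 ± 0.19 with a 95% interval of -1.43 to -0.59 (adjusted p = 0.0504). Against mirror fighters the difference was -1.05 ± 0.19 (adjusted p = 0.0736). Winners were lower than isolated fish by a smaller amount, -0.52 ± 0.19 (adjusted p = 0.191), and the winner minus loser difference was 0.49 ± 0.19 (adjusted p = 1). Mirror fighters minus isolated fish came to 0.04. The mean of nkx2.1 over all arrays, 5.07, lay just above the limit of 5.02 that marks the dimmest 25% of probe sets. All loser arrays lay under that limit, and the gene passed it through the mirror and isolated arrays. For losers against isolated fish the adjusted p was 0.0277 with the dimmest 25% left out, which is no separate support, and up to 0.171 when a single array, isolated array 1, was left out.

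The gene six3a, one of the eye field and anterior forebrain genes, showed the same order of groups at a smaller size. It read 8.24, 8.13 and 8.15 in winners, 7.94, 7.94 and 8.12 in losers, 8.34, 8.49 and 8.52 in mirror fighters and 8.29, 8.26 and 8.46 in isolated fish. Each loser array lay below all 9 others, and each winner array lay below all mirror and isolated arrays. The difference was -0.34 ± 0.12 for losers minus isolated fish (adjusted p = 0.151) and -0.45 ± 0.12 for losers minus mirror fighters (adjusted p = 0.137).

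Not all genes of the class followed. The gene six6a, another eye field gene, read 7.28, 6.91 and 6.85 in winners, 6.99, 7.12 and 6.68 in losers, 7.02, 6.25 and 7.06 in mirror fighters and 6.66, 6.34 and 6.64 in isolated fish. Winners and losers both lay above the isolated arrays, by 0.47 ± 0.23 in winners (adjusted p = 0.292), while mirror fighters spread across them. The dim gene six7, known for its part in zebrafish cone photoreceptors, read 5.03, 5.75 and 5.03 in winners, 5.24, 5.09 and 3.42 in losers, 4.70, 4.37 and 4.52 in mirror fighters and 5.36, 4.48 and 5.22 in isolated fish. The winner arrays lay above the mirror arrays by 0.74 ± 0.44 (adjusted p = 0.41). A second, dimmer six7 probe set gave 0.92 in that comparison. For losers minus isolated fish the 2 probe sets disagreed, with 1.19 for the second and -0.43 for the one used. For nkx2.4b, six3b and six6b the loser minus isolated difference was 0.14 to 0.41, and the class median was 0.14.

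**Figure D2:**
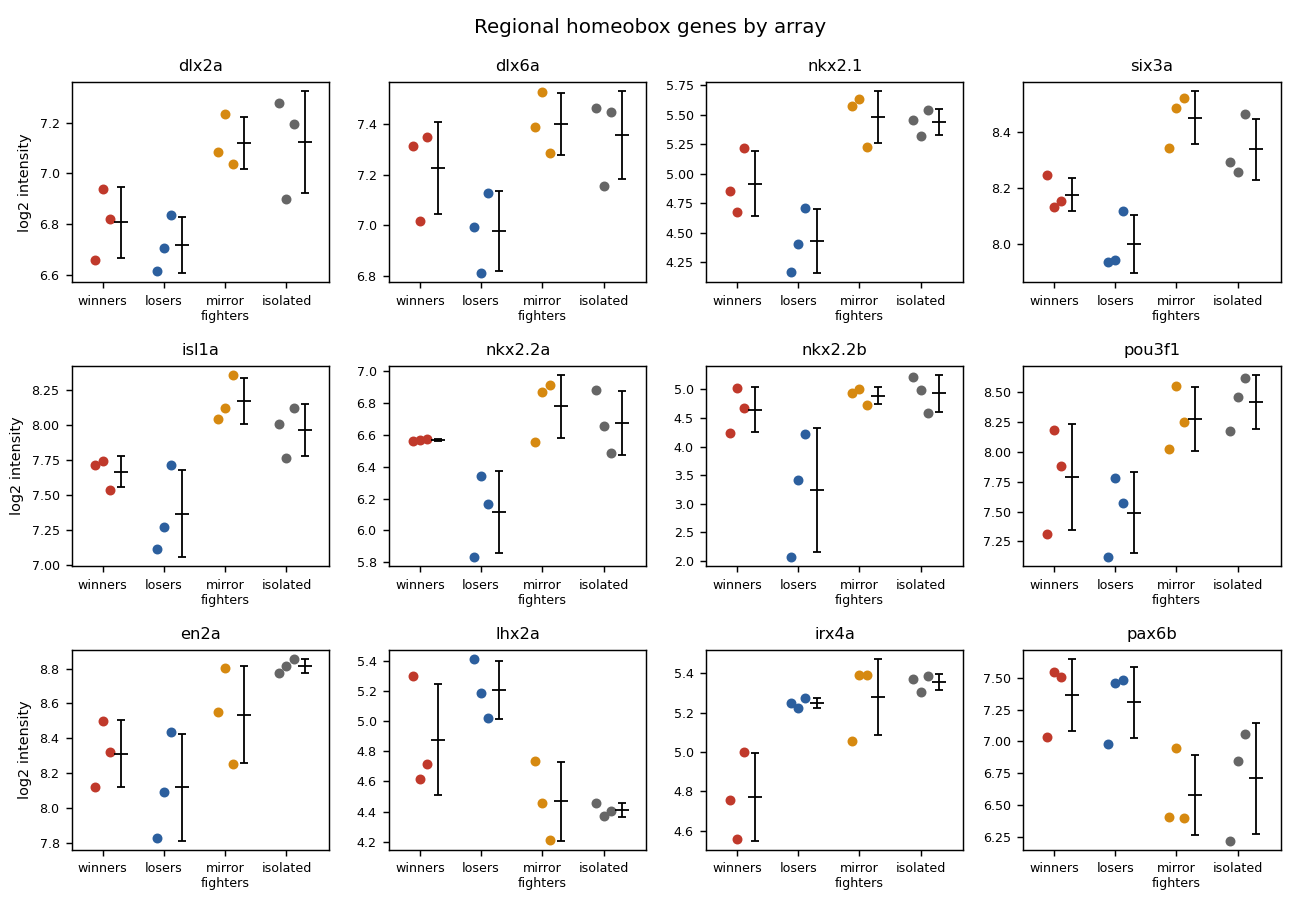
Each panel shows the log2 intensity of one gene on the 12 arrays, a point per array, with the group mean and SD (n = 3) beside the points; the axes differ between panels and do not start at 0. In nkx2.1 and six3a the winner and loser arrays lie below all mirror and isolated arrays, with the highest winner array close under the lowest of those. In nkx2.2a and nkx2.2b the loser arrays lie lowest, with winner array 1 close above the highest loser array in nkx2.2b.

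The class of the ventral hindbrain, spinal cord and pituitary held 6 genes and the largest single differences, those of the dim gene nkx2.2b. Classes were assigned by gene, and whole brain RNA does not place a difference in a region. The gene isl1a, a marker of motor neurons and of cells in the hypothalamus and pituitary, read 7.72, 7.75 and 7.54 in winners, 7.11, 7.27 and 7.71 in losers, 8.04, 8.12 and 8.36 in mirror fighters and 8.01, 7.76 and 8.12 in isolated fish. All winner and loser arrays lay below all mirror and isolated arrays. Losers were at 0.572 of the mirror level, -0.81 ± 0.18 (adjusted p = 0.101), and the difference from isolated fish was -0.60 ± 0.18 in losers (adjusted p = 0.114) and -0.30 ± 0.18 in winners (adjusted p = 0.369).

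The second isl1a probe set read 5.37, 5.51 and 5.97 in winners, 4.26, 4.94 and 5.44 in losers, 6.32, 6.19 and 6.50 in mirror fighters and 6.23, 6.11 and 6.26 in isolated fish. It set the groups apart in the same order as the brighter one, with winners and losers below all mirror and isolated arrays. Its difference was larger, -1.32 ± 0.27 for losers minus isolated fish (adjusted p = 0.0619) and -1.45 ± 0.27 for losers minus mirror fighters (adjusted p = 0.0736).

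The paralogs nkx2.2a and nkx2.2b, which in the embryo mark the ventral neural tube next to the floor plate, read lowest in losers. The gene nkx2.2a read 6.56, 6.57 and 6.58 in winners, 5.83, 6.34 and 6.16 in losers, 6.55, 6.87 and 6.92 in mirror fighters and 6.88, 6.66 and 6.48 in isolated fish. Each loser array lay below all 9 others, with a difference of -0.56 ± 0.17 on average against isolated fish (adjusted p = 0.115) and -0.67 ± 0.17 against mirror fighters (adjusted p = 0.129). Winners minus losers came to 0.46 ± 0.17 (adjusted p = 1).

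The dim gene nkx2.2b read 4.23, 5.02 and 4.67 in winners, 2.07, 3.42 and 4.23 in losers, 4.94, 5.02 and 4.72 in mirror fighters and 5.21, 4.99 and 4.59 in isolated fish. Losers were lowest and also the most spread, with loser array 1 far under the others. The highest loser array and winner array 1 both read 4.23, below every mirror and isolated array. The difference was -1.69 ± 0.44 for losers minus isolated fish (adjusted p = 0.0946), and -1.11 without loser array 1. Winners minus losers came to 1.40 ± 0.44 (adjusted p = 1). For 3 of the 76 genes, six3a, nkx2.2a and nkx2.2b, all loser arrays lay below all 9 others, 3.95% against 1.08% of all probe sets. For 0 genes they lay above the others, against 0.593%. This division of the arrays was chosen after the values were seen. In six3a the highest loser array read 8.118 and the lowest winner array 8.131, and in nkx2.2b they read 4.227 and 4.235, so the margins were very small.

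The winner and loser arrays together lay below all 6 others for nkx2.1, six3a and isl1a, 3.95% against 4.23% of all probe sets, and above them for paxbp1 alone, 1.32% against 2.23%. That division was likewise chosen after the values were seen, and the shares were near the background. The margins were again very small. In nkx2.1 winner array 3 read 5.219 and mirror array 3 read 5.228. In six3a winner array 1 read 8.245 and isolated array 2 read 8.258. For the brighter isl1a probe set, winner array 2 read 7.746 and isolated array 2 read 7.765. The other genes of the ventral class, isl2a, lhx3 and nkx2.9, had differences from -0.01 to 0.85 in losers minus isolated fish and all lay in the dimmest 25%.

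**Figure D3:**
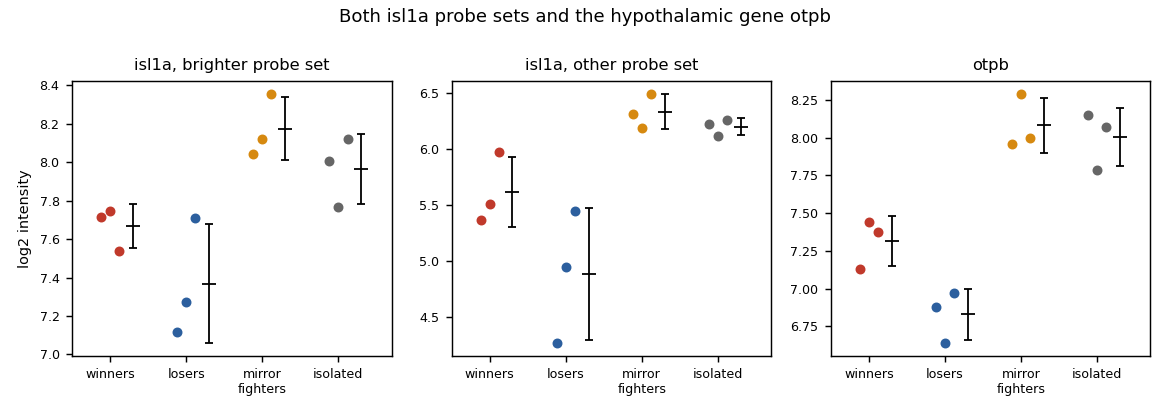
Log2 intensity on the 12 arrays is shown for the brighter isl1a probe set, the other isl1a probe set and otpb, with the group mean and SD (n = 3) beside the points; the axes differ between panels and do not start at 0. In all 3 panels the winner and loser arrays lie below the mirror and isolated arrays, narrowly so for the brighter isl1a probe set. In otpb the losers also lie below the winners.

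Among genes of related function outside the families, a list of 44 measured brain regional factors held a single called gene, otpb. It encodes an orthopedia homeobox protein needed for neuroendocrine cells of the hypothalamus. It read 7.13, 7.44 and 7.38 in winners, 6.88, 6.64 and 6.97 in losers, 7.96, 8.29 and 8.0 in mirror fighters and 8.15, 7.79 and 8.07 in isolated fish. Losers fell by 1.17 ± 0.16 on the log2 scale against isolated fish (adjusted p = 0.0136) and by 1.25 ± 0.16 against mirror fighters (adjusted p = 0.0182). Winners minus isolated fish came to -0.69 ± 0.16 (adjusted p = 0.111), and 43 genes of the list were not called in any comparison.

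The midbrain and midbrain-hindbrain boundary class, with 15 genes, was the largest of the classes placed within the brain. Winners were below isolated fish for 13 of them, with a median of -0.31, and losers for 12, with a median of -0.22. After median centring these counts were 12 and 9. Before centring, 53.9% of all 8793 genes were below 0 in winners and 56% in losers, each minus isolated fish. Of the 15 genes, 5 were dim. The class median was -0.24 for both winners and losers minus mirror fighters. The engrailed gene en2a, a marker of the tectum and cerebellum border, read 8.12, 8.50 and 8.32 in winners, 7.83, 8.10 and 8.44 in losers, 8.55, 8.80 and 8.25 in mirror fighters and 8.77, 8.81 and 8.85 in isolated fish. All winner and loser arrays lay below the closely grouped isolated arrays, and the mirror arrays overlapped both. The difference was -0.69 ± 0.19 in losers (fold 0.619, adjusted p = 0.102), -0.50 ± 0.19 in winners (adjusted p = 0.199) and -0.28 in mirror fighters, each minus isolated fish.

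The other engrailed genes pointed the same way, and they were named after their values were seen. Losers minus isolated fish came to -0.70 for en1a, which is dim, -0.31 for en1b and -0.69 for en2b, and winners minus isolated fish came to -0.54, -0.12 and -0.53. All 4 engrailed genes were also below 0 in mirror fighters minus isolated fish, from -0.30 to -0.12, and all 4 kept these signs after quantile normalization and after median centring. None of these differences was called.

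The forebrain and midbrain gene otx1 read 7.25, 7.93 and 7.76 in winners, 7.23, 7.59 and 7.78 in losers, 7.93, 7.82 and 8.15 in mirror fighters and 7.85, 8.21 and 8.37 in isolated fish. All 3 loser arrays lay below the isolated arrays and 1 winner array did not. Losers minus isolated fish came to -0.61 ± 0.22 (adjusted p = 0.156), while a second otx1 probe set gave -0.17. For gbx1, whose family sets the hindbrain side of the boundary, the readings were 5.49, 5.11 and 5.92 in winners, 5.63, 5.54 and 5.53 in losers, 6.03, 6.21 and 5.93 in mirror fighters and 6.13, 5.57 and 5.61 in isolated fish. Winners and losers lay at or under the lowest mirror array, by -0.55 ± 0.21 in winners (adjusted p = 0.247) and -0.49 in losers (adjusted p = 0.267). The other 12 genes of the class had differences from -0.71 to 0.77 in losers minus isolated fish, with pax7a, pax3a and pax8 above 0.

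The class of thalamus, habenula and tectum held 11 genes with medians near 0, at -0.03 for winners, -0.07 for losers and 0.06 for mirror fighters, each minus isolated fish. The dim gene lhx2a, a LIM homeobox gene, read 5.30, 4.62 and 4.71 in winners, 5.41, 5.19 and 5.03 in losers, 4.74, 4.46 and 4.21 in mirror fighters and 4.46, 4.37 and 4.40 in isolated fish. Winners and losers lay above the isolated arrays, and losers also lay above the mirror arrays. The difference was 0.80 ± 0.20 in losers (fold 1.74, adjusted p = 0.0896) and 0.47 in winners (adjusted p = 0.24), each minus isolated fish.

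Within the Iroquois family, whose members divide the neural plate into domains, irx4a read lowest in winners. It read 4.76, 4.56 and 5.0 in winners, 5.25, 5.22 and 5.27 in losers, 5.06, 5.39 and 5.39 in mirror fighters and 5.37, 5.31 and 5.39 in isolated fish. Every winner array lay below all 9 others, with a difference of -0.58 ± 0.14 from isolated fish (fold 0.667, adjusted p = 0.111) and -0.48 ± 0.14 from losers (adjusted p = 1). It was the 1 gene of 76 that lay lower in winners than in losers without overlap, beside 410 of 15502 probe sets, 2.64%. That count was not above the background. The share of all probe sets with winners below all 9 others was not counted. All winner arrays lay under the limit of 5.02 for the dimmest 25%, and the gene, with a mean of 5.16, passed it through the other groups.

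The gene irx3a read 8.10, 8.51 and 8.27 in winners, 8.03, 8.23 and 8.16 in losers, 8.42, 8.65 and 8.90 in mirror fighters and 8.39, 8.65 and 8.54 in isolated fish. Losers lay below all mirror and isolated arrays, by -0.52 ± 0.16 against mirror fighters (adjusted p = 0.167) and -0.39 against isolated fish (adjusted p = 0.203). The dim gene irx4b read 4.18, 3.95 and 3.56 in winners, 3.75, 3.97 and 3.79 in losers, 3.56, 3.77 and 2.05 in mirror fighters and 2.98, 3.27 and 3.14 in isolated fish. Winners lay above isolated fish by 0.77 ± 0.37 (adjusted p = 0.283), opposite to its paralog irx4a. The other 7 genes, barhl2, irx1a, irx1b, irx5a, irx7, lhx9 and pou4f2, had differences from -0.38 to 0.30 in losers minus isolated fish.

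Of the 9 genes used in several brain regions, 8 were higher in winners than in losers, with a median of 0.17, and none was called. Of all 8793 genes, 4908 were higher in winners than in losers. The POU domain gene pou3f1, expressed in neurons and in myelinating glia in mouse, read 7.31, 8.18 and 7.88 in winners, 7.12, 7.78 and 7.57 in losers, 8.02, 8.55 and 8.25 in mirror fighters and 8.18, 8.45 and 8.62 in isolated fish. All loser arrays lay below all mirror and isolated arrays, and 1 winner array reached them. The difference was -0.92 ± 0.25 for losers minus isolated fish (fold 0.527, adjusted p = 0.102), and the adjusted p was 0.0478 with the replicate number as a block. In every group array 1 gave the lowest pou3f1 reading, and the part of the array number was not tested. At correlations of 0.028, 0.098 and 0.099, the highest just under the limit of 0.1, same-numbered loser and isolated arrays were not taken as paired. The value with the block is therefore no separate support. Winners minus isolated fish came to -0.63 ± 0.25 (adjusted p = 0.22).

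The paired box gene pax6b, a regulator of eye and forebrain neurons, read 7.04, 7.55 and 7.51 in winners, 6.98, 7.46 and 7.48 in losers, 6.41, 6.95 and 6.40 in mirror fighters and 6.22, 6.85 and 7.06 in isolated fish. Winners and losers lay above the mirror arrays and overlapped the isolated arrays. Winners were 1.72 times the mirror level, 0.78 ± 0.26 (adjusted p = 0.201), and losers minus mirror fighters came to 0.72 (adjusted p = 0.2). The paralog pax6a was near 0, at 0.07 and 0.20 in the same comparisons, and it was named after its values were seen.

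The LIM homeobox gene lhx1a read 8.79, 8.75 and 8.87 in winners, 8.51, 8.76 and 8.55 in losers, 8.88, 9.19 and 9.21 in mirror fighters and 8.75, 8.81 and 9.27 in isolated fish. Winners and losers lay below the mirror arrays and touched the lowest isolated ones. The loser minus mirror difference was -0.49 ± 0.16 (adjusted p = 0.187), and 2 other lhx1a probe sets gave -0.26 and -0.15. The remaining 6 genes, lhx1b, lhx5, pax6a, pou3f2b, pou3f3a and pou3f3b, had differences from -0.30 to 0.10 in losers minus isolated fish.

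The pineal and retinal gene otx5, which is dim, read 5.24, 5.57 and 4.81 in winners, 4.83, 4.75 and 3.85 in losers, 5.01, 4.54 and 4.84 in mirror fighters and 4.03, 4.83 and 4.19 in isolated fish. The 2 highest readings were from winners, and the third winner array overlapped every other group. The difference was 0.86 ± 0.31 for winners minus isolated fish (adjusted p = 0.187) and 0.73 for winners minus losers (adjusted p = 1). Summed intensity of 7 pineal and retinal markers was 210 to 315 in winners, 248 to 287 in losers, 209 to 236 in mirror fighters and 220 to 259 in isolated fish, and crx, gnat2 and opn1mw1 among them were dim. Their part in the otx5 values was not tested.

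The 15 genes known chiefly from tissues outside the brain had medians of 0.10 in winners and 0.14 in losers, each minus isolated fish. The dim gene six4b, a muscle and placode gene, read 4.19, 4.42 and 3.43 in winners, 4.26, 4.20 and 3.65 in losers, 4.06, 3.37 and 3.76 in mirror fighters and 3.52, 3.13 and 2.82 in isolated fish. The loser arrays lay above the isolated arrays, by 0.88 ± 0.30 (adjusted p = 0.144), and winners by 0.86 with overlap (adjusted p = 0.176). Its paralog six4a read 6.92, 6.54 and 6.47 in winners, 6.48, 6.66 and 6.37 in losers, 6.07, 6.31 and 6.20 in mirror fighters and 6.43, 6.26 and 5.84 in isolated fish. The winner arrays lay above the isolated arrays by 0.47 ± 0.18 (adjusted p = 0.21). The dim gene pax1b, known from the pharyngeal pouches and sclerotome, differed by 0.69 ± 0.29 in losers minus isolated fish (adjusted p = 0.202). The other 12 genes of the class had differences from -0.24 to 0.90 in that comparison.

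Of the 3 genes matched by symbol only, paxbp1 encodes a protein that binds PAX3 and PAX7. It read 9.53, 9.47 and 9.68 in winners, 9.66, 9.55 and 9.40 in losers, 9.05, 8.92 and 9.16 in mirror fighters and 9.01, 8.55 and 9.13 in isolated fish. Winners and losers lay above all mirror and isolated arrays, by 0.66 ± 0.16 in winners (adjusted p = 0.111) and 0.64 in losers (adjusted p = 0.0926), each minus isolated fish. The largest differences of islr2 and paxip1 by the naming rule were 0.14 for winners minus losers (adjusted p = 1) and 0.14 for losers minus isolated fish (adjusted p = 0.728).

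**Figure D4:**
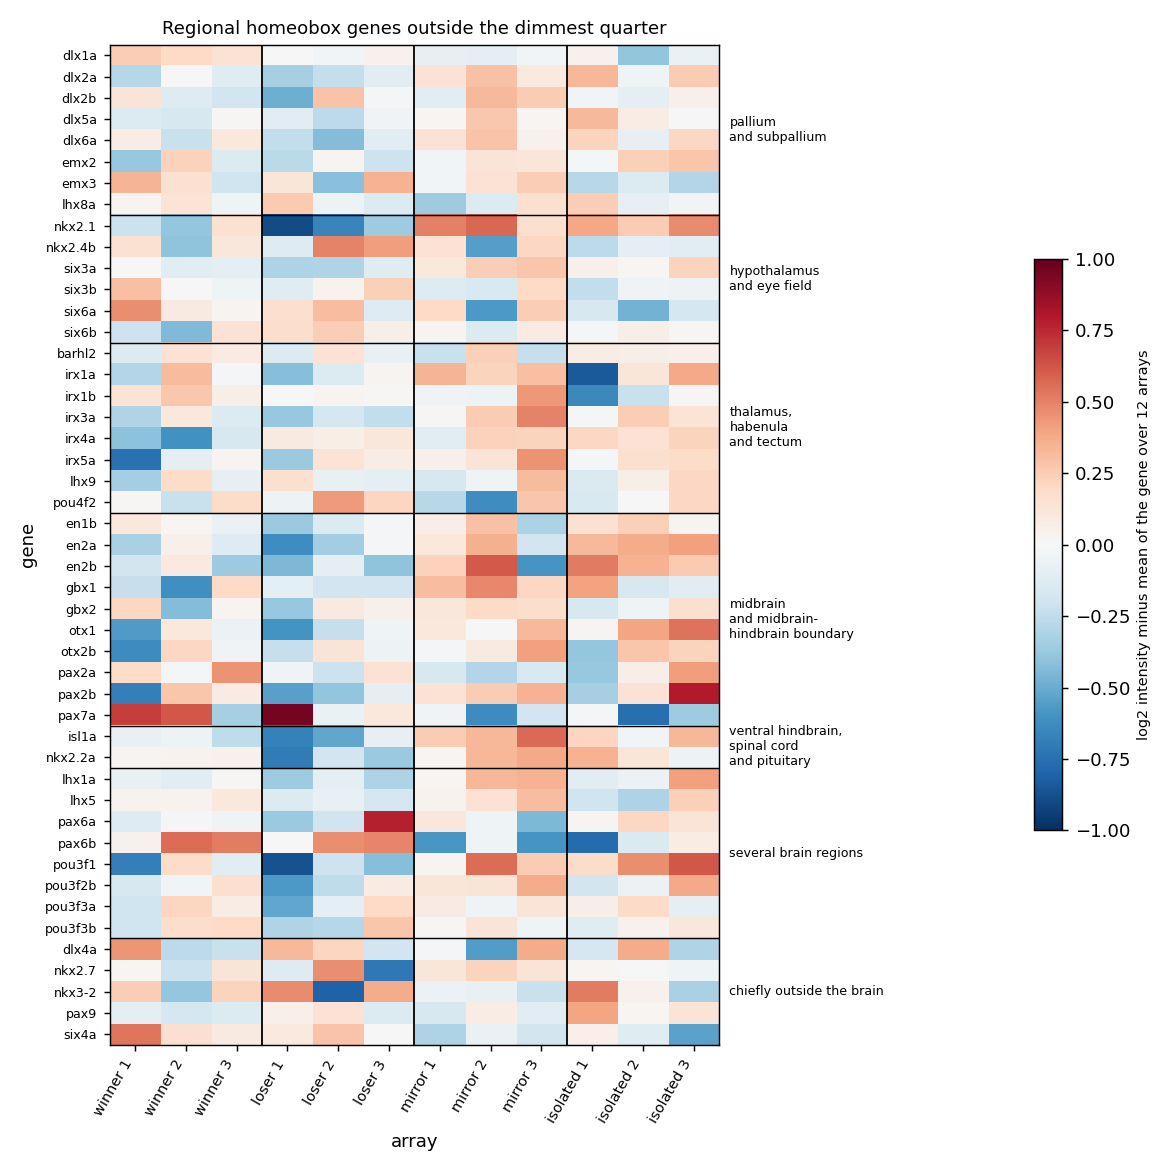
Colour gives the log2 intensity of each array minus the mean of the gene over the 12 arrays, for the 47 homeobox and paired box genes outside the dimmest 25% of probe sets, ordered by brain region class, with 3 arrays per group. The column of loser array 1 holds the most blue cells, and the mean over the 47 genes was -0.20 in that array.

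Averaged over the 47 brighter genes, the deviation from each gene's own mean was -0.07, -0.01 and 0.01 in winners, -0.20, -0.07 and -0.02 in losers, 0.01, 0.08 and 0.12 in mirror fighters and -0.01, 0.03 and 0.12 in isolated fish. Loser array 1 was the lowest of all, and the other loser arrays lay within the winner range or just at its edge. In every group the value rose from array 1 through array 2 to array 3. The main fits did not use the array number, and its part in these values was not tested. Within a group, the SD of a gene had a median of 0.23 for these genes and 0.22 for all genes of that brightness.

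The intervals show what 3 arrays per group could resolve. The 95% interval of the difference lay within 1 log2 unit of 0 in all 6 comparisons for 39 of the 73 homeobox and paired box genes. It lay within 0.5 log2 units in all of them for 1 gene, barhl2, a tectal and diencephalic gene. Between winners and losers the interval lay within 1 log2 unit for 57 genes, and between mirror fighters and isolated fish for 60.

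Several of these families occur in clusters, and 10 pairs of the genes lie side by side in the gene order of the zebrafish assembly GRCz12tu. The 2 genes of a pair had the same sign in 5 of 10 pairs for winners, 7 for losers and 4 for mirror fighters, each minus isolated fish. The count was 6 for winners minus losers and 4 for both winners and losers minus mirror fighters. Among probe sets of the same gene, 15 further probe sets could be set beside the one used. Their sign matched in 14 of 15 for losers minus mirror fighters, in 13 for winners minus losers, in 12 for mirror fighters minus isolated fish, in 11 for winners minus isolated fish and winners minus mirror fighters, and in 10 for losers minus isolated fish.

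Partners of these factors were measured as well. Of 26 measured LIM and Hox cofactors none was called, and tle3b and then pbx1a had the smallest p in the test for any difference. The gene pbx1a, which encodes a partner of Hox and other homeobox proteins, differed by 1.12 ± 0.26 for losers minus isolated fish (adjusted p = 0.0797). The corepressor gene tle3b differed by 0.73 for winners minus isolated fish (adjusted p = 0.125). None of 4 GABA neuron genes was called, though all 4 were above 0 in losers minus isolated fish, with a median of 0.36, or 3 of them after quantile normalization. Among them gad2, which makes GABA, differed by 0.60 ± 0.19 in winners (adjusted p = 0.153) and 0.55 in losers (adjusted p = 0.148), each minus isolated fish, and abat, which breaks it down, by -1.33 ± 0.41 in winners minus losers (adjusted p = 1).

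None of 19 secreted regional signals was called. The gene fgf8a, a signal of the midbrain-hindbrain boundary that maintains en2a in the embryo, was below the isolated arrays without overlap in each other group, by -0.67 in winners (adjusted p = 0.122), -0.79 ± 0.18 in losers (adjusted p = 0.0789) and -0.57 in mirror fighters (adjusted p = 1). The dim gene fgf3 differed by 0.80 in losers minus mirror fighters (adjusted p = 0.135). Of 24 measured Hox genes, which mark the hindbrain and spinal cord, none was called, and 12 lay in the dimmest 25% of probe sets. The median over the 24 was 0.25 in winners, 0.27 in losers and 0.38 in mirror fighters, each minus isolated fish. Their summed intensity was 667 to 1233 in winners, 915 to 1036 in losers, 1057 to 1280 in mirror fighters and 707 to 982 in isolated fish, and the share of hindbrain and spinal cord in each dissected brain was not tested.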

How the data were processed

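RNA from zebrafish whole brains was hybridized to 12 Affymetrix zebrafish arrays, 3 per group. Per the labels' protocols, 100 ng of RNA was amplified by 3 prime in vitro transcription; the labels name both a column kit and Trizol for extraction. Whether each array came from 1 brain or several is not stated, so p-values measure only the spread between these samples. The deposited values are linear intensity per probe set, with the summary and normalization not given in the sources used here; the submitters' processing notes name Partek 6.6. Values had a floor of 1.

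The log2 of the deposited intensity was fitted for 15502 probe sets, without the 115 controls, with limma 3.58.1 in R 4.3.3 (1 mean per group, 8 residual and 2.55 prior degrees of freedom). Tests were two-sided and Benjamini-Hochberg adjusted over all probe sets, with a threshold of 0.05. Each gene was represented by its brightest probe set with a single symbol; 10795 probe sets had 1 symbol, 135 several and 4572 none. Fits were tested on simulated data. No genome build is named, so no coordinates are given, and GRCz12tu served for names and gene order only.

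Named were every called gene, the 3 genes of each region class with the smallest F-test p, the 2 with the largest difference without overlap per comparison, and from companion lists every called gene or the 2 with the smallest F-test p; exceptions are marked. Genes, region classes and lists were chosen with earlier results of these data known. Same-numbered winner and loser arrays deviated together, with correlations of 0.112, 0.111 and 0.233, each over 0.1, and were taken as paired in an alternative fit. Other groups' numbers were not, although the correlation was 0.184 for winner and isolated array 1 and 0.211 for mirror and isolated array 3. The main fits did not use the pairing. Winner minus loser errors, p-values and intervals above therefore ignore it. Alternatives covered the normalization, an added offset, dim probe sets, moderation, replicate numbers as a block, the arrays fitted, other probe sets and single arrays left out.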

Additional observations from a re-analysis of the deposited data

How the results depend on the processing

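The count of genes called was 0 in each comparison, and it stayed 0 in winners and mirror fighters against isolated fish, winners against losers and winners against mirror fighters under every alternative run. With the dimmest 25% of probe sets left out, nkx2.1 was called in 3 comparisons: 1 gene for any difference, 1 for losers against isolated fish and 1 for losers against mirror fighters. The gene passed that filter through its mirror and isolated arrays, so these calls are no separate support. For losers against isolated fish, adding 32 before the log2 gave 2 genes (paxbp1 and nkx2.1), and the replicate number as a block over all 12 arrays gave 1 gene (pou3f1). Loser and isolated array numbers were not taken as paired, so the pou3f1 call is no separate support. Leaving out single arrays gave 0 to 2 genes in that comparison: nkx2.1 without winner array 3, and nkx2.1 and nkx2.2b without loser array 3. With pairing of winner and loser arrays as a block, 0 genes were called between them, and the adjusted p was 0.919 for nkx2.2b. Of 624 values of the named genes under alternatives, 617 kept their direction and side of the threshold, 7 passed it and 0 reversed. None of the 76 genes was called in the main fit, so there was no call to lose. Several alternatives leave the log2 difference unchanged: dim probe sets left out, the moderation, the block, 2 groups fitted alone, and arrays of uncompared groups left out. For paxbp1 in winners minus isolated fish it was 0.66 in the main fit and under the alternative moderation. Such alternatives do not test direction, so the tally is no measure of robustness. Only 3 arrays per group, the offset in the spiked controls and the 26 dim genes limit these comparisons. The causes of the changes in calls were not tested.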

Other observations

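Some genes, picked out once their values were known, had probe sets that disagreed. The probe set used for pax7a, a gene of the tectum and neural crest, gave 0.70 for winners and 0.71 for losers, each minus isolated fish, and the other 3 gave 0.28 and 0.59, 0.03 and 0.05, and -0.64 and 0.48. The last of these differed by -1.12 ± 0.25 for winners minus losers (limma, adjusted p = 0.789). For pax2b, a gene of the midbrain-hindbrain boundary, the 2 probe sets gave -0.31 and 0.32 for winners and -0.54 and 0.17 for losers, each minus isolated fish. For its paralog pax2a, the second probe set gave -0.77 ± 0.21 for mirror fighters minus isolated fish (limma, adjusted p = 0.828) and the probe set used gave -0.24.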
